A study of Homo sapiens with 6 samples.

Results

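In OCI-LY10 lymphoma cells, 6 inducible genes of 2 small groups were followed, the immediate early response genes IER2, IER3 and IER5 and the pleckstrin homology-like genes PHLDA1, PHLDA2 and PHLDA3. They were chosen by symbol, as every probe that the platform annotation assigns to one of the 6 genes. These are 6 of the 20046 genes that the annotation names, with 7 of the 47231 probes, 2 for PHLDA1 and 1 for each other gene. OCI-LY10 is an established human line of diffuse large B-cell lymphoma, of the subtype that resembles activated B cells. It was cultured with pimasertib, which blocks MEK1 and MEK2, the kinases upstream of ERK, or with its solvent DMSO as control, and 1 Illumina bead array was made per treatment at 4, 8 and 12 h. The drug dose is not given in the sources used here. Whether each time had its own culture is not stated in the labels. The p-values therefore reflect the spread among these 6 arrays, part of which may be technical. They also lean on the other probes, since limma draws the variance of each probe toward that of all fitted probes.

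The IER genes are switched on within minutes of a growth or stress signal, largely through ERK and the transcription factors it activates. IER2 is a nuclear protein, IER5 is a relative of it that binds the phosphatase PP2A and activates the heat shock factor HSF1, and IER3 (also called IEX-1) is a small membrane-linked protein that prolongs ERK activity and is also an NF-kB target. The PHLDA proteins consist mainly of a domain that binds membrane phosphoinositides. PHLDA1 (TDAG51) was described in activated T cells of the mouse and is a common transcriptional output of ERK in human tumour cells, PHLDA2 is an imprinted gene of the placenta, and PHLDA3 is a p53 target that keeps the kinase AKT off the membrane.

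The 250 bases before the start of 3 of the 6 genes are shown because immediate early genes are switched on through short response elements of this kind of region. They come from RefSeq on GRCh38.p14, which holds an entry for IER2, IER5 and PHLDA1 in the table used. Each is written 5′ to 3′ on the strand of the gene. Capitals mark a match to 1 of the motifs searched.
IER2, chr19:13150161-13150410, plus strand: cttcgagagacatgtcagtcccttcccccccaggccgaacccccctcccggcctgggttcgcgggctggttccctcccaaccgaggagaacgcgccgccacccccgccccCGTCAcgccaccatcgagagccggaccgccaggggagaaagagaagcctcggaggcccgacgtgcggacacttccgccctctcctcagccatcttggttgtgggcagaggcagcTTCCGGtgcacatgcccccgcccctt
IER5, chr1:181088450-181088699, plus strand: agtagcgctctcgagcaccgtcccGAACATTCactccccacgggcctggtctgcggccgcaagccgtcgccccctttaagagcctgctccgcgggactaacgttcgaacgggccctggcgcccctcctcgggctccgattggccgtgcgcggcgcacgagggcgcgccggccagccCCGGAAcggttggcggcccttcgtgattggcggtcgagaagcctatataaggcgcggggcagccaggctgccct
PHLDA1, chr12:76031777-76032026, minus strand: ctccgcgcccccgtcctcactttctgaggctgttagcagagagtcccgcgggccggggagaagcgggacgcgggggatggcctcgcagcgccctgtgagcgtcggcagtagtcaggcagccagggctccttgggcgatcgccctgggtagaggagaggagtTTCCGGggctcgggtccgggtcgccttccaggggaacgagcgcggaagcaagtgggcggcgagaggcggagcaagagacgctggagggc

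All motifs were searched on both strands, and none of the matches overlapped another. CCGGAA, a core of the sites bound by ETS factors, occurred 1 time in each of the 3 windows, ending 21, 69 and 84 bases before the start of IER2, IER5 and PHLDA1. It is present in 14.5% of 35116 RefSeq windows of the same length. The 3 windows are rich in G and C, at 69.6% for IER2 and 70.4% for both others, and the comparison was not matched for this. The heat shock element core GAANNTTC was found in IER5 alone of the 3, as GAACATTC, and in 5.78% of all windows. The cyclic AMP response core TGACG was found in IER2 alone, on the minus strand, and in 21.2% of all windows. The EGR site GCGNGGGCG (8.41% of all windows) and the CArG box of the serum response element (1.16%) had no match in these 3 windows. A match is a run of letters and not an observed binding site.

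Values are the authors' normalised log2 intensities. A probe was counted as measured if it exceeded a background threshold of 6.70 in at least 3 of the 6 arrays, which 19896 probes did. Of the 7 member probes, 6 were measured, for 5 of the 6 genes. No level is compared here between different probes, since probes differ in brightness for the same amount of RNA. In RNA from whole cultures, fewer cells that express a gene and less of its RNA per cell cannot be told apart.

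**Figure D1:**
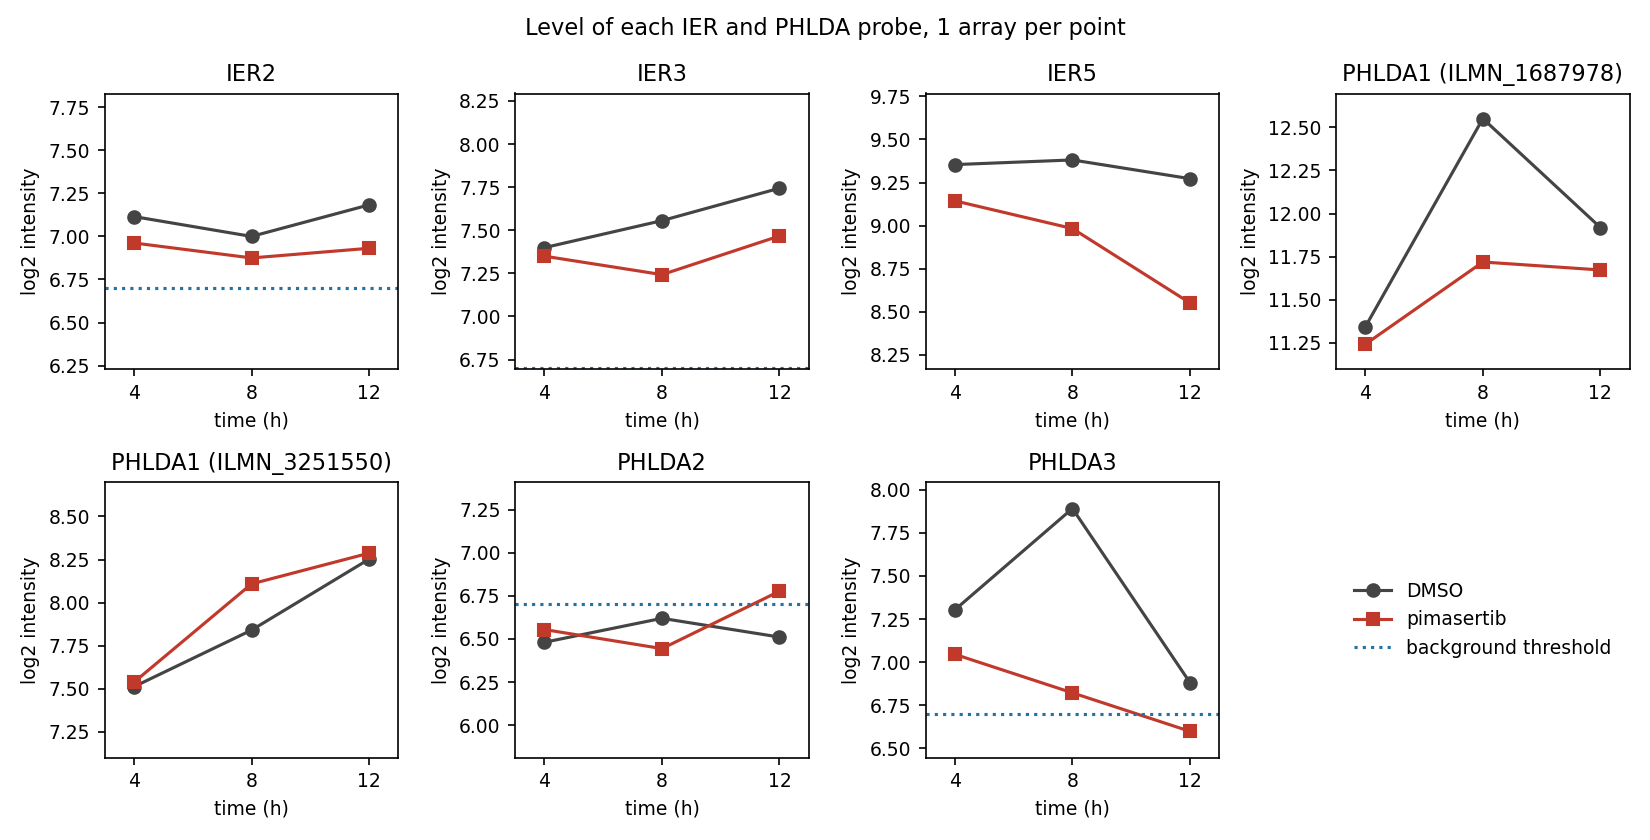
Log2 intensity of each of the 7 probes against time (h), with 1 array per point, DMSO as grey circles and pimasertib as red squares; the dotted line is the background threshold of 6.70, and each vertical axis spans the same width. The IER2, IER3, IER5 and PHLDA3 lines for pimasertib lie below DMSO at 4, 8 and 12 h, and the 2 PHLDA1 probes differ from each other.

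IER5 showed the clearest separation of the treatments among the IER genes. In DMSO its level was 9.35 at 4 h, 9.38 at 8 h and 9.27 at 12 h, and with pimasertib it was 9.14, 8.98 and 8.55. All 3 pimasertib arrays lay below all 3 DMSO arrays, with the lowest at 12 h. The DMSO arrays spanned 0.11 on the log2 scale and the pimasertib arrays 0.59. The difference between treatments was -0.21, -0.40 and -0.72 at 4, 8 and 12 h, or 1.65-fold lower at 12 h. The mean difference was -0.44 ± 0.17 (SE, n = 3 arrays per group), which is 1.36-fold lower. Its unadjusted p in limma was 0.0389 and its adjusted p over all 19896 probes was 0.691, so it did not pass the threshold of 0.05.

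IER2 had the steadiest difference among the measured members, and it was small. Its level was 7.11, 7.00 and 7.18 in DMSO and 6.96, 6.87 and 6.93 with pimasertib at 4, 8 and 12 h. The groups did not overlap, but only narrowly, with the lowest DMSO array at 7.00 and the highest pimasertib array at 6.96. The pimasertib arrays stayed above the background threshold, though that of 8 h was under a stricter one of 6.91. The difference was -0.15, -0.12 and -0.25, with a mean of -0.18 ± 0.15 (SE, n = 3), which is 1.13-fold lower, and an adjusted p of 0.762 in limma. For IER2 and IER5 alike the two-sided exact permutation test of 3 arrays against 3 gave p = 0.1, the smallest it can give. This test ignores the pairing by time, and it gives that value whenever the groups do not overlap. In the same permutation test p was 0.2 for IER3 and PHLDA3, and 0.4 and 0.7 for the PHLDA1 probes ILMN_1687978 and ILMN_3251550.

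IER3 was lower at each time, but its groups overlapped. It was at 7.40, 7.56 and 7.74 in DMSO and at 7.35, 7.24 and 7.47 with pimasertib at 4, 8 and 12 h. The pimasertib array of 12 h was above the DMSO array of 4 h. The difference was -0.05 at 4 h, -0.31 at 8 h and -0.28 at 12 h, and its mean was -0.21 ± 0.16 (SE, 3 arrays per group; adjusted p = 0.739, limma). In DMSO the level at 12 h was 0.34 above that at 4 h, and with pimasertib it was 0.12 above.

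PHLDA1 was measured by 2 probes that did not give the same picture. Probe ILMN_1687978 read 11.34, 12.55 and 11.92 in DMSO and 11.24, 11.72 and 11.67 with pimasertib at 4, 8 and 12 h. Pimasertib was lower at each time, by -0.10, -0.83 and -0.25, yet the groups overlapped because DMSO at 4 h was low. Its mean difference was -0.39 ± 0.19 (SE, n = 3), which is 1.31-fold lower, with an adjusted p of 0.691 in limma. Probe ILMN_3251550 read 7.51, 7.84 and 8.25 in DMSO and 7.54, 8.11 and 8.29 with pimasertib. Here pimasertib was slightly higher at each time, by 0.03, 0.27 and 0.03, with a mean of 0.11 ± 0.16 (SE; adjusted p = 0.865, limma). The 2 probes are annotated to the same transcript, and both were above background in all 6 arrays.

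Both PHLDA1 probes were higher at the later times within each treatment. From 4 to 12 h, ILMN_3251550 differed by 0.74 in DMSO and by 0.75 with pimasertib. The other probe differed by 0.58 in DMSO and by 0.43 with pimasertib over the same interval, and its highest DMSO reading was at 8 h, 1.21 above the 4 h array. These are single arrays with no test.

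PHLDA3 had the largest mean difference of the members in these arrays. It read 7.30, 7.89 and 6.88 in DMSO and 7.05, 6.82 and 6.60 with pimasertib at 4, 8 and 12 h. Pimasertib was lower at each time, and its 12 h array was below the background threshold of 6.70, so its level there is only known to be under that threshold. The groups overlapped, because DMSO at 12 h was below pimasertib at 4 h. The difference was -0.26, -1.07 and -0.28 by time, or 2.10-fold lower at 8 h. The mean difference was -0.54 ± 0.21 (SE, n = 3), which is 1.45-fold lower, with an unadjusted p of 0.0416 and an adjusted p of 0.691 in limma. These take the 12 h reading as it stands. With it set to the threshold, a choice made after the values were seen, the difference was -0.18 at 12 h and the mean -0.50, or at least 1.42-fold lower.

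PHLDA2 was not measurable. Its probe exceeded 6.70 in 1 of 6 arrays, the pimasertib array of 12 h at 6.78. The other 5 arrays read 6.48, 6.62 and 6.51 in DMSO and 6.55 and 6.44 with pimasertib. Differences of 0.07, -0.18 and 0.27 between such readings have no order, and the probe took no part in the test.

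**Figure D2:**
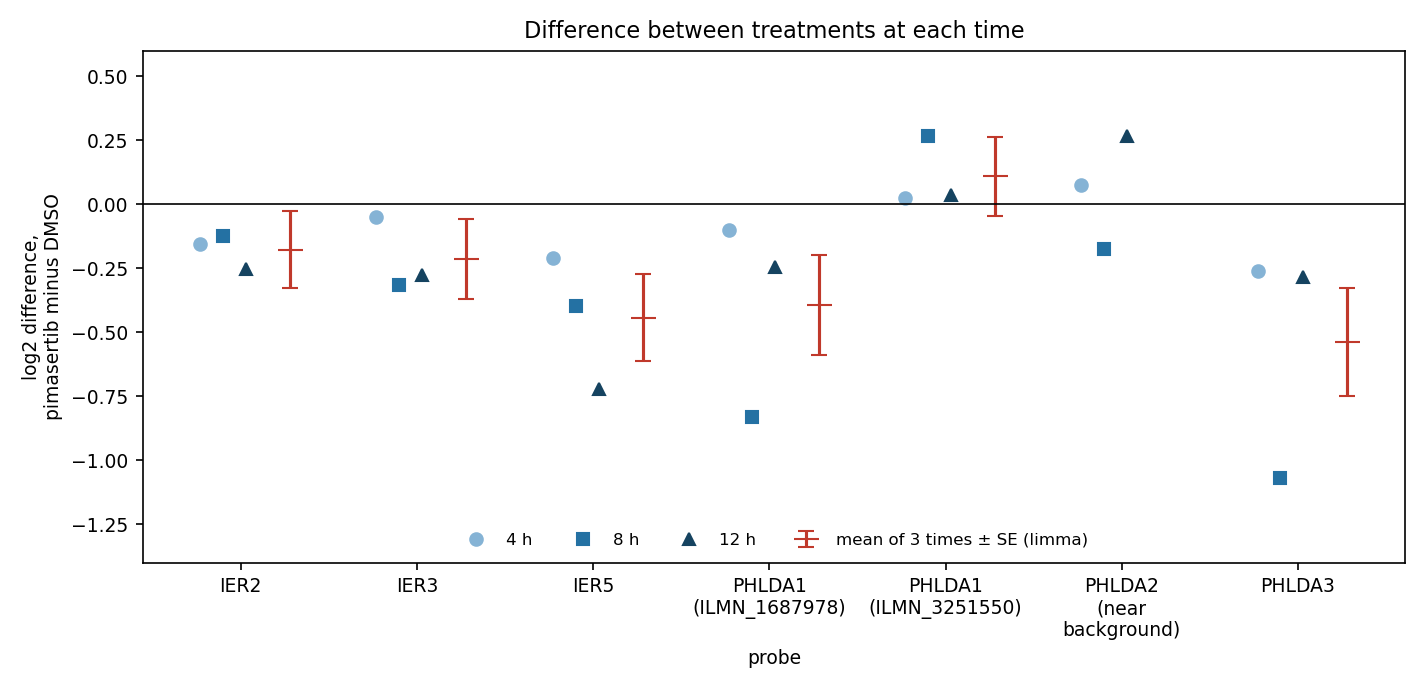
Log2 difference between pimasertib and DMSO for each probe at 4 h (circles), 8 h (squares) and 12 h (triangles), with the mean of the 3 times and its SE from limma as red bars where the probe was measured. IER5 runs from -0.21 to -0.72, PHLDA3 and PHLDA1 (ILMN_1687978) are lowest at 8 h, and PHLDA1 (ILMN_3251550) lies at or above 0.

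Read together, 5 of the 6 measured member probes were lower at all 3 times and 1 was higher, where over all measured probes 14.7% were lower and 17.4% higher at all 3 times. In 2 of the 6, IER2 and IER5, the pimasertib arrays all lay below the DMSO arrays, which was so for 7.5% of all measured probes, and in 0 of the 6 did they all lie above (8.11% of all). The median of the mean differences was -0.30 over the 6 probes and 0.02 over all measured probes. By time the members' median was -0.13, -0.36 and -0.26 at 4, 8 and 12 h, against 0.01, 0.04 and -0.01 over all. With so few genes, picked with earlier results known, these counts are a description. In limma 0 of the 6 passed an adjusted p of 0.05, as did 0% of all measured probes. At an unadjusted p under 0.05, 2 of the 6 were lower (IER5 and PHLDA3), as were 3.44% of all measured probes, and 0 were higher, against 3.42% of all. That count of 2 was found in 2 of 14 alternatives, and it was 1 in 6 of them and 0 in the 6 others, among these array weights, cyclic loess and the fits that left out the pair of 4 h, that of 8 h or the DMSO array of 8 h.

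The members did not differ alike in time. At 4 h 0 of the 6 probes differed by 1.5-fold, where 0.92% of all measured probes were that much lower and 0.945% higher. At 8 h PHLDA1 (ILMN_1687978) and PHLDA3 were at least 1.5-fold lower, as were 9.84% of all, and 0 members were that much higher, against 13.6% of all. At 12 h IER5 alone was at least 1.5-fold lower, against 7.76% of all, and 0 members were higher, against 8.36%. When treatment was fitted together with hours and an interaction of both, the difference of IER5 changed by -0.06 ± 0.05 per hour (SE, limma), with an unadjusted p of 0.217 in limma. That slope was between -0.03 and 0.001 per hour for the other 5 probes. For all 6 probes the adjusted p was 0.9999 in limma, so a change of the difference with time was not shown, and 0% of all probes passed. At an unadjusted p under 0.05 there were 0 members, against 1.87% of all probes.

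The DMSO array of 8 h held the highest reading of PHLDA1 (ILMN_1687978) and of PHLDA3, and that of IER5 by 0.03. This array had a mean correlation of 0.925 with the other arrays over all measured probes, against 0.951 to 0.973 for the rest. Relative to DMSO at 4 h, PHLDA1 (ILMN_1687978) was 1.21 and PHLDA3 0.59 higher in it. These are 2 of the 6 member probes at least 1.5-fold higher there, PHLDA3 only just, against 10.1% of all measured probes. With that array and the time term both left out, which sets pimasertib at 3 times against DMSO at 4 and 12 h, the mean difference was -0.09 for PHLDA1 (ILMN_1687978) and -0.27 for PHLDA3. IER5 was at -0.42, IER2 at -0.23 and IER3 at -0.22 in the same fit. Without both arrays of 8 h, PHLDA1 was at -0.17 (ILMN_1687978) and 0.03 (ILMN_3251550), and PHLDA3 was at -0.27. IER5 was at -0.30 without the 12 h pair and at -0.56 without the 4 h pair. The part of array quality in the 8 h values was not tested.

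**Figure D3:**
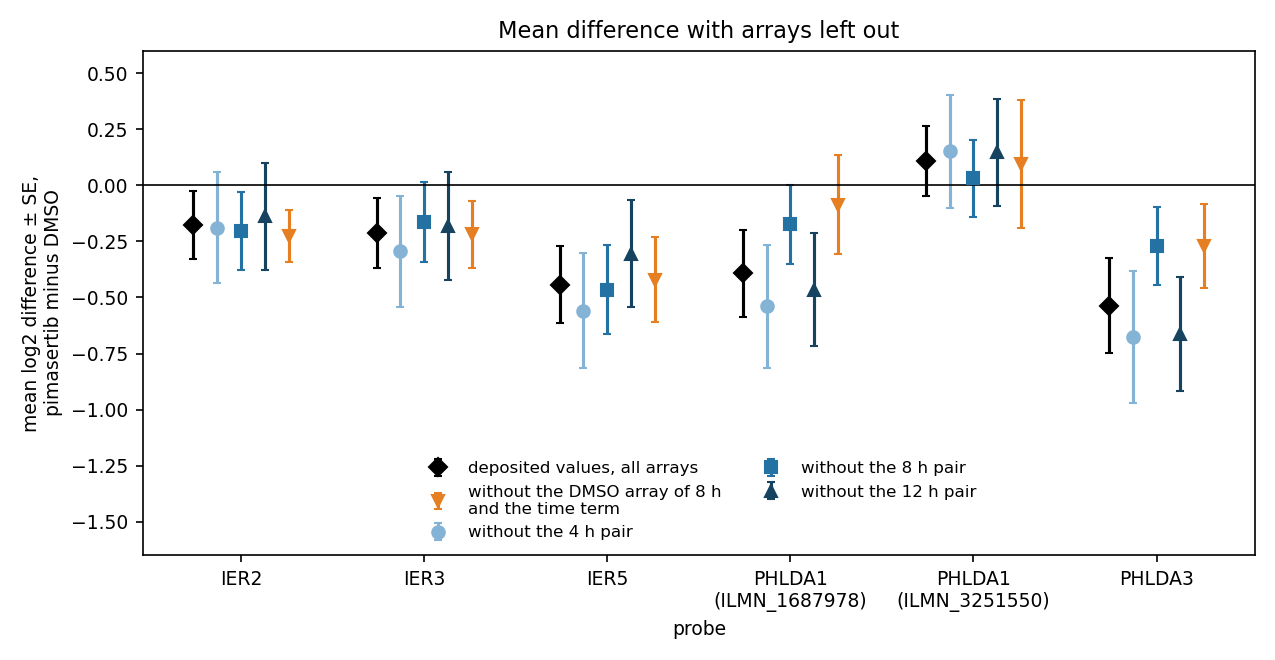
Mean log2 difference between pimasertib and DMSO with its SE from limma for the 6 measured probes, from all arrays (black diamonds), without each time pair (blue symbols), and with no time term after leaving out DMSO at 8 h (orange triangles). With that array and the time term left out, PHLDA1 (ILMN_1687978) is at -0.09 in place of -0.39 and PHLDA3 at -0.27 in place of -0.54, while IER5 stays between -0.56 and -0.30.

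The genes whose course over the 6 arrays was most like that of each member were found by the root mean square distance between centred log2 profiles. PUSL1, which is related to pseudouridine synthases, was nearest to IER5 at 0.04 and differed by -0.17, -0.40 and -0.77 at 4, 8 and 12 h. FIZ1, a zinc finger gene, came next at 0.05. CD320, the receptor for vitamin B12-laden transcobalamin, was nearest to PHLDA3 at 0.05, with differences of -0.27, -1.08 and -0.41. AVEN, an inhibitor of apoptosis, followed at 0.07. For PHLDA1 (ILMN_1687978) the nearest were UBE2V1, a ubiquitin-conjugating enzyme variant, and PIK3CG, the gamma catalytic subunit of PI3K, both at 0.11. For IER3 these were the splicing gene SNRNP27 at 0.03 and CLDN18, close to background, at 0.04, and for IER2 NT5C3B and GSTO1, both at 0.03. These are descriptions over 6 arrays, drawn from 11100 genes. Within double the nearest distance lay 115 genes for PHLDA1 and 40 for IER2, so their named genes stand out little. For IER3 and IER5 it was 15 genes each, and for PHLDA3 9. Among the members themselves the nearest pair was IER2 and IER3 at 0.11, and IER5 was nearer to IER2 (0.24) and PHLDA3 (0.27) than to IER3 (0.28) or PHLDA1 (0.45). The profiles were centred and not scaled, so probes that vary little lie close together. A flat profile would lie at 0.11 from IER2, 0.16 from IER3 and 0.29 from IER5. The distances among the members are therefore not read as a likeness of course.

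EGR1, an immediate early transcription factor under direct ERK control, served as the check of the drug. It was at -1.45, -2.03 and -2.23 at 4, 8 and 12 h, a mean of -1.90 ± 0.20 (SE, 3 arrays per group), with an unadjusted p of 5.17e-05 and an adjusted p of 0.691 in limma. Its pimasertib array of 12 h was below background. With that level set to the threshold the 12 h difference was -2.15 and the mean -1.88, which are bounds. The member differences at each time were thus smaller than that of EGR1. Cell identity markers matched the label in part. Of the B cell markers on the array 6 of 7 were measured, including CD79A, CD79B and MS4A1, and PAX5 was not. All 8 markers of the activated B cell-like type were measured, among them IRF4 and BATF. Of the T cell markers 2 of 6 were measured (CD5 and CD2, with CD3D, CD3E and CD3G below the filter), of the myeloid markers 2 of 7 and of the fibroblast markers 1 of 6.

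Other genes of the pathways in which the members take part were counted with the members left out and the brightest measured probe per gene. The lists were chosen with earlier results of these data known, so their counts and medians are a description. Over all 11100 genes, 15.7% were lower at each of the 3 times and 17.4% higher, with a median difference of 0.02, and 0 passed an adjusted p of 0.05 in limma in any list named here. The immediate early list had 21 measured genes, of which 5 were consistently lower over the 3 times and 0 consistently higher, and its median was -0.08. Beside EGR1 these included the ERK phosphatase DUSP2 at -0.92 ± 0.16 (SE). The activation marker CD69 was at -0.98 ± 0.24, above background in 2 of 3 pimasertib arrays, and the stress factor ATF3 at 0.48 ± 0.24. The 7 other genes of the list, among them FOS, NR4A1 and the IER5 relative IER5L, were not above background.

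The ERK feedback and output list, to which PHLDA1 belongs, had 20 other genes, of which 10 were measured. SPRY2, SPRY4 and DUSP4 were among those not above background. Of the 10 measured, 5 were lower at all 3 times and 1 was higher, and the median was -0.22. The higher one was DUSP6, at 0.12, 0.03 and 0.22 at 4, 8 and 12 h. MAFF, a small transcription factor, was at -0.62 ± 0.16 (SE), the potassium channel KCNN4 at -0.75 ± 0.20, the ETS factor ETV5 at -0.69 ± 0.20 and the phosphatase DUSP5 at -0.41 ± 0.15. A second measured probe of ETV5 was at 0.23 and one of MAFF at -0.13, both near background. PHLDA1 (ILMN_1687978), at -0.39, lay close to DUSP5 in its mean only. By time it was at -0.10, -0.83 and -0.25, and DUSP5 was at -0.30, -0.41 and -0.53. The other PHLDA1 probe was at 0.11.

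Of 18 p53 targets other than PHLDA3, IER3 and IER5, 4 were lower and 2 higher at all 3 times, and the median was -0.02. TP53I3, a quinone oxidoreductase, was at -0.45 ± 0.17 (SE), and the BH3-only gene PMAIP1 was at 0.60 ± 0.23, with its other measured probe at -0.03. Of 21 NF-kB targets other than IER3, 4 were lower at each of the 3 times and 4 higher, and the median was -0.004. LTA, which encodes lymphotoxin alpha, was at -0.78 ± 0.16, the atypical inhibitor BCL3 at -0.61 ± 0.19, the subunit NFKB1 at 0.74 ± 0.25 and NFKBIZ at 0.49 ± 0.17.

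Heat shock factor targets, the genes that IER5 helps to activate through HSF1, had a median on the other side of 0 from the difference of IER5. Of 13 measured, 1 was lower at each of the 3 times and 5 were higher, and the median was 0.32. By time the list's median was 0.02, 0.47 and 0.27 at 4, 8 and 12 h, so at 4 h it was close to 0. The 8 h median rests on the DMSO array with the lowest mean correlation with the others. A link between IER5 and these genes was not tested. The chaperone HSPA1B was at 0.63 ± 0.22 (SE), above background in 2 of 3 DMSO arrays, the co-chaperone BAG3 at 0.40 ± 0.15 and DNAJA1 at 0.35 ± 0.16. The chaperonin HSPE1, counted among the 5 higher, was at 2.22 ± 0.84, with 1 DMSO array below background. Its other measured probe was lower at each time, by -0.57, -0.44 and -1.32, with a mean of -0.78. The count for HSPE1 thus depends on the probe used. Of 19 PI3K-AKT genes other than PHLDA3, 5 were lower at each of the 3 times and 2 higher, with a median of -0.11. The serum-inducible kinase SGK1 was at -0.94 ± 0.19, with 2 further measured probes at -1.06, above background in 2 of 3 pimasertib arrays, and at -0.96, PIK3CD, the p110-delta subunit of PI3K, at -0.37 ± 0.15 and the mTOR inhibitor TSC2 at -0.35 ± 0.16.

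**Figure D4:**
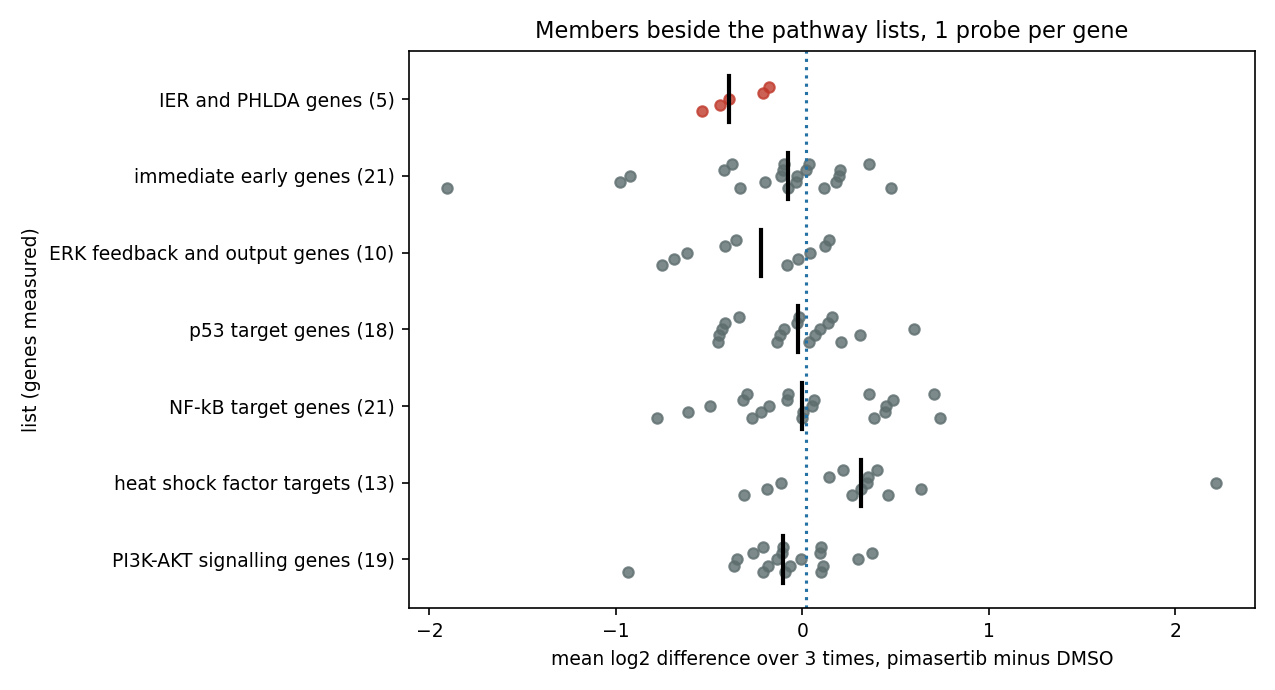
Mean log2 difference over the 3 times for 1 probe per gene, with 1 point per measured gene, the members in red and the genes of 6 pathway lists in grey with the members left out; black bars are medians and the dotted line is the median of all genes, 0.02. By the brightest probe of each gene, all 5 measured members lie between -0.54 and -0.18, and every list has genes on both sides of 0. The other measured PHLDA1 probe (ILMN_3251550), at 0.11, is not drawn.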

How the data were processed

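Total RNA of OCI-LY10 cells was amplified to biotinylated cRNA for Illumina arrays, per the labels' protocols. The deposited log2 intensities had been normalised by the authors: the sorted values of the 6 arrays differ by at most 9e-04, and every array has a median of 6.63. Base 2 was inferred from the range of 6.20 to 13.91. For software and background correction, nothing is stated in the labels. A second table, of unnormalised intensities, was left out, because its 6 value columns match no label and carry no detection p-values.

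Treatment and time follow the labels. The mode of all values was 6.49, and the spread of values under the mode gave an SD of 0.0700, so the threshold of 6.70 is the mode plus 3 SDs. The platform annotation names a single gene for 30113 probes, more than 1 for 8 and no gene for 17110, and 30074 of the first were matched to RefSeq by gene identifier. All measured probes were fitted in limma 3.58.1 (R 4.3.3) and the time point entered as a factor of 3 levels, which leaves 2 residual degrees of freedom. A treatment effect that differs between times thus widens the SE and raises the p. Each SE also rests on a variance prior from all fitted probes. The SD of the 3 differences was 0.07 for IER2 and 0.46 for PHLDA3, beside SEs of 0.15 and 0.21. With no filter on dim probes the SE of IER2 was 0.07. Tests were two-sided, with adjustment by Benjamini-Hochberg over all measured probes. The time point pairs the arrays by label. Deviations from the group means of paired arrays correlated at 0.105, 0.0466 and 0.0601 at 4, 8 and 12 h.

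The members, gene lists and tests were chosen with earlier results of these data known. By rule the text names every member probe, EGR1, up to 4 genes of the smallest p per list, and the 2 genes nearest to each member. DUSP6 was added outside this rule, as the 1 measured gene of its list that was higher at all 3 times. Cell type markers are named as examples. The alternatives were other filters on dim probes, 1 probe per gene, another variance prior, other time terms, array weights, cyclic loess, normexp with an offset of 50, and arrays left out. For arrays, their number limits the precision.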

Additional observations from a re-analysis of the deposited data

How the results depend on the processing

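In every alternative fitted, 0 member probes passed an adjusted p of 0.05, and each of the 6 measured member probes kept the sign of its mean difference. The mean ran from -0.56 to -0.30 for IER5, from -0.23 to -0.14 for IER2, from -0.30 to -0.11 for IER3, from -0.68 to -0.27 for PHLDA3, from -0.54 to -0.09 for PHLDA1 (ILMN_1687978) and from 0.03 to 0.17 for PHLDA1 (ILMN_3251550). The lowest adjusted p among these was 0.411, for PHLDA3 without the 12 h pair (limma). With no replicate block, that is without the time point, 0 probes of the table and 0 member probes passed, and the adjusted p of IER5 was 0.713 (limma). Over all probes 2 passed with a trended and robust prior, and with a time pair left out 0 to 10 passed, the 10 without the 12 h pair. With array weights 88 probes passed for a change of the difference per hour, none of them a member, and the cause was not tested. With cyclic loess the slope of PHLDA3 turned from -0.00303 to 0.00376 per hour. With array weights the mean was -0.11 for IER3, -0.20 and 0.05 for PHLDA1 (ILMN_1687978 and ILMN_3251550) and -0.35 for PHLDA3, each moved by over 1.5 times, while IER2 was at -0.17 and IER5 at -0.31. PHLDA3 had no value where all 6 arrays had to exceed background. Signal near background limits IER2, PHLDA2 and PHLDA3.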
